A study of Homo sapiens with 12 samples.

Results

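The 9 genes described here encode claudins and other tight junction proteins (CLDN1, CLDN2, CLDN3, CLDN4, CLDN7, CLDN12, OCLN, TJP1 and F11R) and were taken by name from a table of 54261 genes. Total RNA was sequenced from HCT116oxR and HCT116 cells, with 3 libraries per line. HCT116 is an established human colorectal carcinoma line, used here as the parental control, and HCT116oxR is the population that survived oxaliplatin, a platinum drug that damages DNA, given in steps that began at 0.1 µmol/L and ended at 5 µmol/L. The labels give 1 year at the last dose, describe the replicates as cultures grown and harvested separately, and do not say whether drug was present at harvest. There was 1 resistant line, and p-values describe variation among cultures only, with no second resistant line to set beside them.

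Tight junctions seal the space between neighbouring epithelial cells near their apical side. Claudins are membrane proteins that pair across that space, and the mix of claudins in a tissue sets which ions and solutes pass. Most of them seal, among them the products of CLDN1, CLDN3, CLDN4 and CLDN7, while the CLDN2 protein forms a channel for small cations and water in leaky epithelia such as the intestinal crypt. Occludin (OCLN) and junctional adhesion molecule A (F11R) are further membrane proteins of the junction, and ZO-1 (TJP1) is the scaffold that binds claudin tails on the inner face and links them to actin. RNA levels say nothing directly about protein in the junction.

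The epithelial label was checked on marker lists. Of 8 colonic epithelial markers 7 could be tested, and 4 were called higher, 1 lower and 2 neither in HCT116oxR cells (adjusted p under 0.05 by edgeR). Among all genes tested 22.3% were called higher and 21.8% lower. The keratin gene KRT8 stood at 1638 ± 21.5 CPM in HCT116oxR cells and 1222 ± 32.7 CPM in HCT116 cells (CPM, counts scaled to a common library size with TMM factors, mean ± SD, n = 3). KRT19 went the other way, with 997 ± 22.4 CPM in HCT116oxR cells and 1088 ± 19.9 CPM in HCT116 cells, KRT20 did not pass (log2 fold change -0.39), and the villin gene VIL1 had 0 to 2 counts in any library. Of 6 leukocyte markers, PTPRC and CD3E had 0 counts in every library, while CD68 had 62 to 83 counts in HCT116oxR libraries and 115 to 168 in HCT116 libraries and was called lower (log2 fold change -1.09). Of 6 endothelial markers, CLDN5 had 0 counts and CDH5 0 or 1, while VWF (0.74) and ESAM (0.49) were present, with HCT116oxR above HCT116 and no call. The fibroblast gene COL1A1 was present at 43.3 ± 2.02 CPM in HCT116oxR cells and 53.5 ± 3.05 CPM in HCT116 cells, but COL3A1 had at most 2 counts. The summed level of the 8 epithelial markers ranged from 3695 to 3780 CPM in HCT116oxR libraries and from 3076 to 3184 CPM in HCT116 libraries. Most of that sum came from KRT8, KRT19 and KRT18, so it says little about the other markers. KRT18 had 827 ± 7.18 CPM in HCT116oxR cells and 573 ± 12.5 CPM in HCT116 cells. The summed level of the 6 fibroblast markers ranged from 46.6 to 51.7 CPM in HCT116oxR libraries and from 55.2 to 68.3 CPM in HCT116 libraries. That of the endothelial markers was 7.66 to 9.10 CPM in HCT116oxR libraries and 4.75 to 6.72 CPM in HCT116 libraries, and that of the leukocyte markers 5.30 to 6.71 CPM in HCT116oxR libraries and 10.2 to 13.2 CPM in HCT116 libraries. The part of other cell types in the results below was not tested. Libraries held 11950069 to 13558077 counts. Across genes, which are not independent replicates, Pearson's r was 0.987 to 0.989 within a line and 0.955 to 0.958 between lines.

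The main result was a rise of CLDN3, CLDN4 and OCLN and a smaller fall of F11R in HCT116oxR cells. TJP1 was also called lower, a call that some of the alternative settings described below lost. With sign left aside, the median log2 fold change over all genes tested was 0.27. OCLN (0.34) and F11R (-0.30) lay near that size, and TJP1 (-0.11) under it. Of the 9 genes, 7 had enough counts to be tested, 3 were higher, 2 were lower, and CLDN7 and CLDN12 did not pass (edgeR's quasi-likelihood test, Benjamini-Hochberg adjusted p under 0.05 over 17511 genes). Over all genes tested, 44.1% passed, 22.3% higher and 21.8% lower, so that passing was common in this comparison and the count of 5 of 7 is given without a test. In the same 5 genes the lines did not overlap, 3 with HCT116oxR above and 2 below, as in 50.5% of all genes tested (25.7% above and 24.8% below). The median log2 fold change of the 7 genes tested was 0.09, against -0.00057 over all genes tested. In bulk RNA, fewer cells that express a gene and less RNA per cell cannot be told apart.

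**Figure D1:**
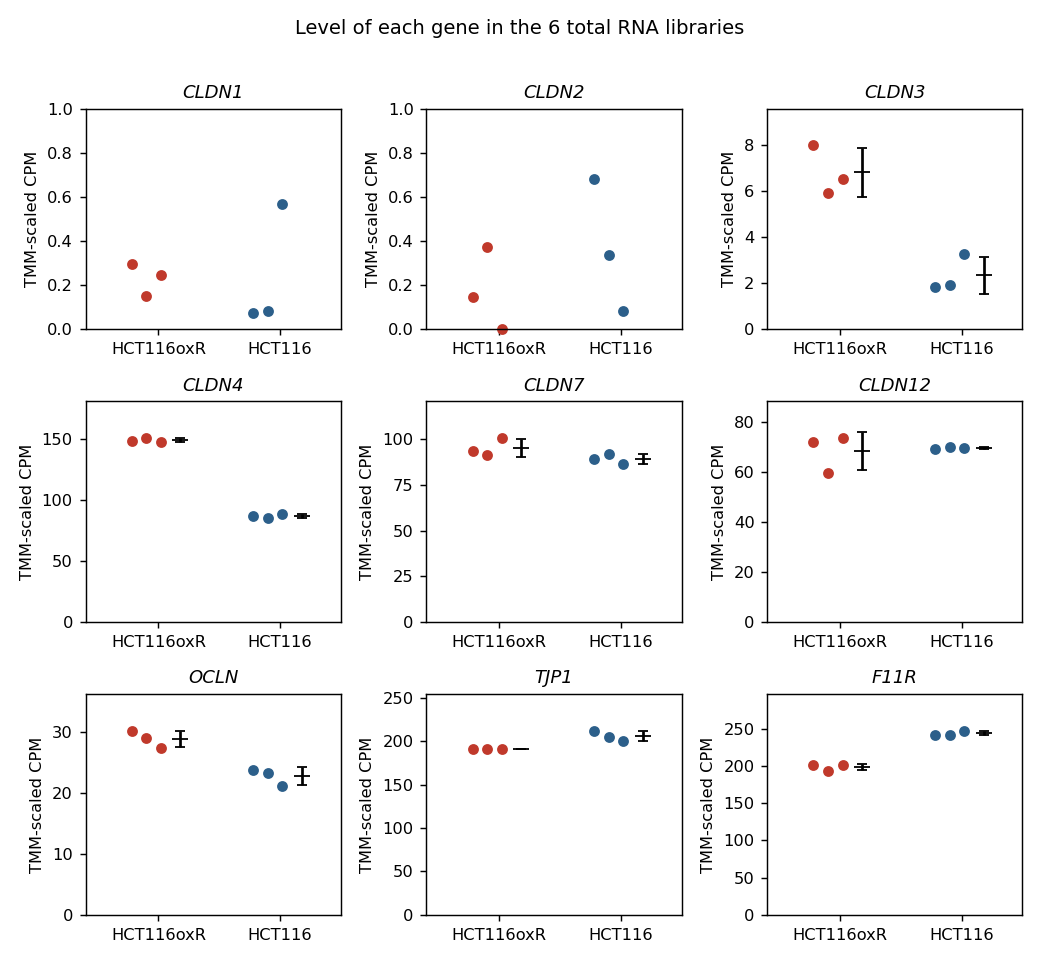
Level of each of the 9 genes in TMM-scaled CPM (vertical axes, each starting at 0), with 1 point per library, HCT116oxR in red and HCT116 in blue; black bars are mean ± SD of 3 libraries and are left out for CLDN1 and CLDN2, whose libraries hold 0 to 9 counts. For CLDN3, CLDN4 and OCLN all red points lie above all blue points, and for TJP1 and F11R all lie below.

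The DNA just before the start of 4 of the genes is shown because CLDN3 and CLDN4 rose together, OCLN rose less and CLDN7 did not pass. The letters are from RefSeq (GRCh38.p14), read 5′ to 3′ on the gene's own strand, 250 bases up to the base before the annotated start. Capitals mark CACCTG or its reverse complement CAGGTG, the E-box bound by the repressors of the SNAI and ZEB families, and GGGCGG or CCGCCC, the core letters of SP1 sites. The windows are chr7:73770271-73770520 (minus strand) for CLDN3, chr7:73830746-73830995 (plus strand) for CLDN4, chr5:69492297-69492546 (plus strand) for OCLN at the first of its 2 starts, and chr17:7262479-7262728 (minus strand) for CLDN7 at the second of its 2 starts. For CLDN7 alone the start was chosen for having more E-box matches, and the others are shown at their first or only start. The window of the first CLDN7 start had 0 E-box and 0 SP1 matches.
CLDN3: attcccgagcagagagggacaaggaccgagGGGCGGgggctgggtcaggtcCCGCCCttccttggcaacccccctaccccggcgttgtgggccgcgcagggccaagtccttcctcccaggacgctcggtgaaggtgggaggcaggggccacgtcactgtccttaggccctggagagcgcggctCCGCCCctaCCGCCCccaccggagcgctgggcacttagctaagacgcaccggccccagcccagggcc
CLDN4: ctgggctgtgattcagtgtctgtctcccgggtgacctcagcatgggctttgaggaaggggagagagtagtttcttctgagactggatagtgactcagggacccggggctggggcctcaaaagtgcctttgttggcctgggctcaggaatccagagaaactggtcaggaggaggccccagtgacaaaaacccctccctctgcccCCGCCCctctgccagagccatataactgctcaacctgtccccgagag
OCLN: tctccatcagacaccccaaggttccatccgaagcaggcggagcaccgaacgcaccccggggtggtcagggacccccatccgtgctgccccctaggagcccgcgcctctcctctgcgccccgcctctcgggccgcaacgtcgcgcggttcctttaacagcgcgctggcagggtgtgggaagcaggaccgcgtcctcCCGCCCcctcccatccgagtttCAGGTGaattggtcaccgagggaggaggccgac
CLDN7: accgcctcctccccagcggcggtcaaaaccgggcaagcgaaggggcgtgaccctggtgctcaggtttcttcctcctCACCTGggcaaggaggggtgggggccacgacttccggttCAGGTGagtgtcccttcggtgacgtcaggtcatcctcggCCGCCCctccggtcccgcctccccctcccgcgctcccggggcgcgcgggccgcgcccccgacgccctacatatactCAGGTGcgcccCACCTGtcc

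CLDN3 had 7.97, 5.89 and 6.52 CPM in the HCT116oxR libraries, against 1.81, 1.93 and 3.24 CPM in the HCT116 libraries. Every HCT116oxR library lay above every HCT116 library, and the third HCT116 library was the highest of its line. The difference was 2.92-fold, a log2 fold change of 1.55 ± 0.24 (SE, 95% confidence interval 1.07 to 2.02, adjusted p = 2.17e-08). This claudin seals the paracellular path in gut and other epithelia and, with the CLDN4 protein, binds Clostridium perfringens enterotoxin. It rested on 267 counts in HCT116oxR cells and 87 in HCT116 cells, the fewest of the 7 genes tested, and the log2 fold change was 1.85 without HCT116 replicate 3 and 1.38 without HCT116 replicate 1.

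CLDN4, whose protein limits the passage of sodium, had 148, 150.3 and 147 CPM in HCT116oxR cells, against 86.9, 85.3 and 88.7 CPM in HCT116 cells. The libraries of each line lay close together and far from the other line. The level was 1.71-fold higher in HCT116oxR cells (log2 fold change 0.77 ± 0.05, adjusted p = 5.59e-29), on 5828 counts in HCT116oxR cells and 3262 in HCT116 cells.

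CLDN7 encodes a claudin that also lies along the side membrane of intestinal cells and binds the adhesion protein EpCAM. It had 93.8, 91.6 and 100.7 CPM in HCT116oxR cells, against 89.4, 92.0 and 86.5 CPM in HCT116 cells. The lines overlapped, and the log2 fold change of 0.09 had a 95% confidence interval of -0.01 to 0.20 (adjusted p = 0.164). CLDN7 shares 38 annotated bases with ELP5, so reads there could belong to either gene. EPCAM, an epithelial marker, rose 1.19-fold, with 180 ± 1.79 CPM in HCT116oxR cells and 151 ± 8.94 CPM in HCT116 cells (adjusted p = 4.06e-07).

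CLDN12 encodes a claudin that lacks the tail by which most claudins bind ZO-1. It had 72.0, 59.4 and 73.4 CPM in HCT116oxR cells, against 69.0, 69.9 and 69.5 CPM in HCT116 cells. The second HCT116oxR library was below all the others, and the other 2 were above every HCT116 library. The log2 fold change was -0.03 (95% confidence interval -0.15 to 0.10, adjusted p = 0.780), and 0.07 (adjusted p = 0.475) without HCT116oxR replicate 2.

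CLDN1 and CLDN2 were at the edge of detection in both lines and did not enter the test. CLDN1, the main sealing claudin of skin, had 4, 2 and 3 counts in HCT116oxR cells, against 1, 1 and 7 in HCT116 cells. CLDN2, the cation channel, had 2, 5 and 0 counts in HCT116oxR cells, against 9, 4 and 1 in HCT116 cells. Each line held 9 counts of CLDN1 in all, and a difference between the lines was not detectable at this depth for either gene. CLDN1 lies inside CLDN16, which had 0 counts in every library, and CLDN2 overlaps RIPPLY1, which had 1 to 8.

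OCLN had 30.2, 28.9 and 27.5 CPM in HCT116oxR cells, against 23.8, 23.3 and 21.1 CPM in HCT116 cells. All HCT116oxR libraries were above all HCT116 libraries, by less than for the claudins that rose. The fold was 1.27 (log2 fold change 0.34 ± 0.10, 95% confidence interval 0.15 to 0.54, adjusted p = 0.00262). OCLN has a transcribed partial copy on chromosome 5, OCLNP1, which was not analysed here, and the handling of reads that match both is unknown.

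F11R had 201, 193 and 201 CPM in HCT116oxR cells, against 242, 242 and 247 CPM in HCT116 cells. The lines were far apart compared with the spread within each. F11R was 18.5% lower in HCT116oxR cells (log2 fold change -0.30 ± 0.04, adjusted p = 6.96e-11). Its protein joins the junction through an immunoglobulin-like domain and helps to place the polarity complex there.

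TJP1 had 191, 191 and 192 CPM in HCT116oxR cells, against 212, 205 and 200.5 CPM in HCT116 cells. The HCT116oxR libraries were all below the HCT116 libraries, by a small margin. The fall was 7.07% (log2 fold change -0.11 ± 0.04, adjusted p = 0.0242). It did not pass with upper quartile scaling (-0.08, adjusted p = 0.102), without HCT116 replicate 1 (-0.09, adjusted p = 0.134), without HCT116oxR replicate 1 (-0.10, adjusted p = 0.0566) or without HCT116oxR replicate 3 (-0.11, adjusted p = 0.0655). A pseudogene within TJP1, HMGN2P5, had 68 to 98 counts in a library.

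**Figure D2:**
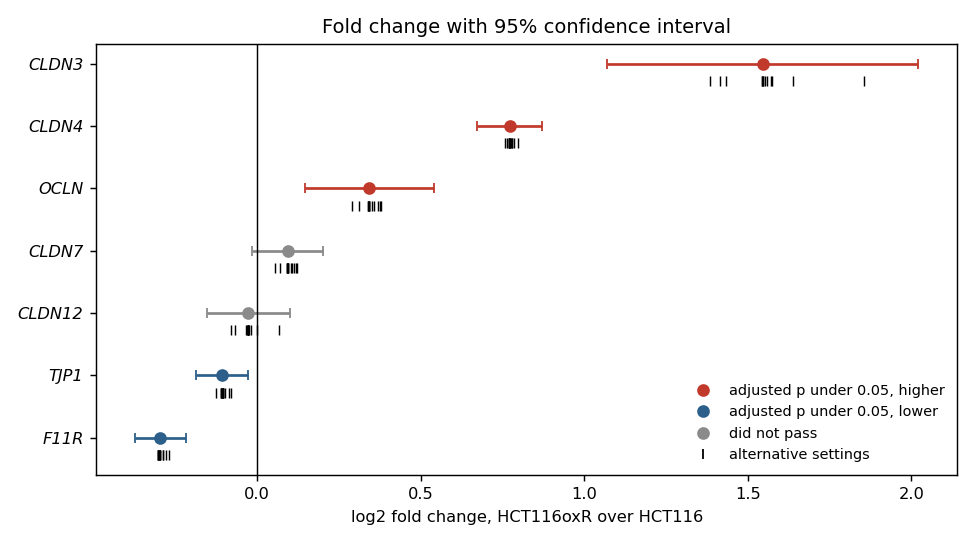
Log2 fold change of HCT116oxR over HCT116 cells (horizontal axis) for the 7 genes tested, as points with 95% confidence intervals; red passed as higher, blue as lower, grey did not pass, and black ticks are the values under each alternative setting. CLDN3 has the widest interval, 1.07 to 2.02, and the ticks of CLDN12 lie on both sides of 0.

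Ratios between the genes within a library do not depend on how libraries were scaled. The CLDN7 to CLDN4 ratio of counts was -0.64 ± 0.08 in HCT116oxR cells and 0.04 ± 0.07 in HCT116 cells (log2, mean ± SD, n = 3), a difference of -0.68. The TJP1 to OCLN ratio was 2.73 ± 0.07 in HCT116oxR cells and 3.18 ± 0.06 in HCT116 cells, a difference of -0.45. The CLDN3 to CLDN4 ratio was -4.45 ± 0.23 in HCT116oxR cells and -5.25 ± 0.43 in HCT116 cells, a difference of 0.79, or 1.74-fold. The third HCT116 library (-4.76) lay nearer to the second HCT116oxR library (-4.66) than to its own line. The lines did not overlap in any of the 3, and the 2-sided exact permutation p was 0.1 (adjusted p = 0.167 over the 5 ratios compared), the smallest that 3 against 3 libraries allow. The remaining ratios, of CLDN2 and of CLDN1 to CLDN4, rested on the few counts above and overlapped between lines (exact permutation p = 0.2 and 0.8, adjusted p = 0.25 and 0.8). Ratios of counts carry the unknown transcript lengths of both genes, so they compare lines and not genes.

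**Figure D3:**
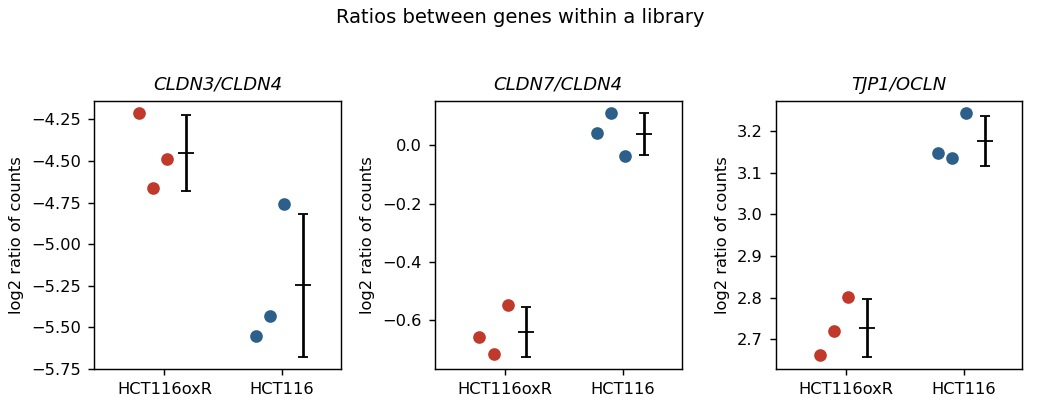
Log2 ratio of counts between gene pairs within each library (vertical axes, not starting at 0), HCT116oxR in red and HCT116 in blue, with black bars for mean ± SD of 3 libraries. The CLDN3 to CLDN4 ratio is higher in HCT116oxR, while the CLDN7 to CLDN4 and TJP1 to OCLN ratios are lower, with no overlap between lines.

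The genes that rose include adjacent pairs. CLDN3 (chr7:73768997-73770270) and CLDN4 (chr7:73830996-73832690) lie 60.7 kb apart with no tested protein-coding gene between them. On the far side of CLDN3, 30.2 kb away, ABHD11, which encodes a mitochondrial hydrolase, rose by 0.42 ± 0.08 on the log2 scale (adjusted p = 6.47e-06), whereas WBSCR27, 1.90 kb beyond CLDN4, stood at -0.16 ± 0.13 (adjusted p = 0.350). Within 1 Mb of CLDN4 the 24 tested protein-coding genes, CLDN3 among them, had a median log2 fold change of 0.01, with 4 higher and 7 lower. Over all genes tested 22.3% were higher and 21.8% lower. Besides CLDN3 and ABHD11, the neighbours called higher were MLXIPL (0.53 ± 0.06) and CLIP2 (0.36 ± 0.05), both outside the naming rule. The largest falls were those of TRIM74 (-1.12 ± 0.19), LAT2 (-1.05 ± 0.14) and STX1A (-1.01 ± 0.09), also outside it. Whether position had a part in the rise of the pair was not tested.

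OCLN (chr5:69492547-69558104) lies 48.2 kb from MARVELD2, which encodes tricellulin, a relative of occludin that seals the corners where cells meet. MARVELD2 had 51.7 ± 7.07 CPM in HCT116oxR cells and 43.9 ± 1.73 CPM in HCT116 cells (log2 fold change 0.24 ± 0.08, adjusted p = 0.00653), with overlap between the lines, and it did not pass without HCT116oxR replicate 1 (0.19, adjusted p = 0.0776) or replicate 2 (0.18, adjusted p = 0.0683). GTF2H2C, on the other side of OCLN at 2.09 kb, stood at 0.04 ± 0.11 (adjusted p = 0.816). Of 13 tested protein-coding genes within 1 Mb of OCLN 5 rose and 0 fell, with a median of 0.04. The shares over all genes tested were 22.3% higher and 21.8% lower.

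F11R (chr1:160995211-161021152) fell beside TSTD1, a sulfurtransferase gene 16.5 kb away that rose by 0.46 ± 0.10 (adjusted p = 5.70e-05), and VANGL2, a planar polarity gene 567 kb away that rose by 1.78 ± 0.32 (adjusted p = 8.39e-07). The median of the 27 genes within 1 Mb of F11R was -0.03. Around TJP1 (chr15:29699367-29969049) neither nearest gene passed, with FAM189A1 at -0.14 ± 0.25 (adjusted p = 0.683) and CHRFAM7A at 0.01 ± 0.36 (adjusted p = 0.983), and the median of 7 genes was 0.01.

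CLDN7 (chr17:7259903-7263213) lies between ELP5 (-0.19 ± 0.08, adjusted p = 0.0481, a call that most alternatives lost) and the glucose transporter gene SLC2A4 (0.37 ± 0.24, adjusted p = 0.216). The median of 61 genes within 1 Mb of CLDN7 was -0.06. Within 5 Mb it was -0.20, with 61 of 135 genes lower and 22 higher, against 21.8% lower and 22.3% higher over all genes tested. CLDN12 (chr7:90403461-90415954) is flanked by GTPBP10 (-0.16 ± 0.06, adjusted p = 0.0235) and LOC102723899 (0.31 ± 0.25, adjusted p = 0.334). GTPBP10 did not pass with upper quartile scaling (-0.13) or without HCT116oxR replicate 2 (-0.13), HCT116oxR replicate 3 (-0.16), HCT116 replicate 1 (-0.15) or HCT116 replicate 2 (-0.14). Of the nearly silent claudins, CLDN1 (chr3:190305707-190322446) has the interleukin-1 receptor partner gene IL1RAP (0.87 ± 0.26, adjusted p = 0.00316) and TPRG1 (0.19 ± 0.11, adjusted p = 0.157) as nearest tested genes. CLDN2 (chrX:106900164-106930861) has TBC1D8B (0.43 ± 0.10, adjusted p = 8.39e-05) and RBM41 (-0.09 ± 0.06, adjusted p = 0.197).

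**Figure D4:**
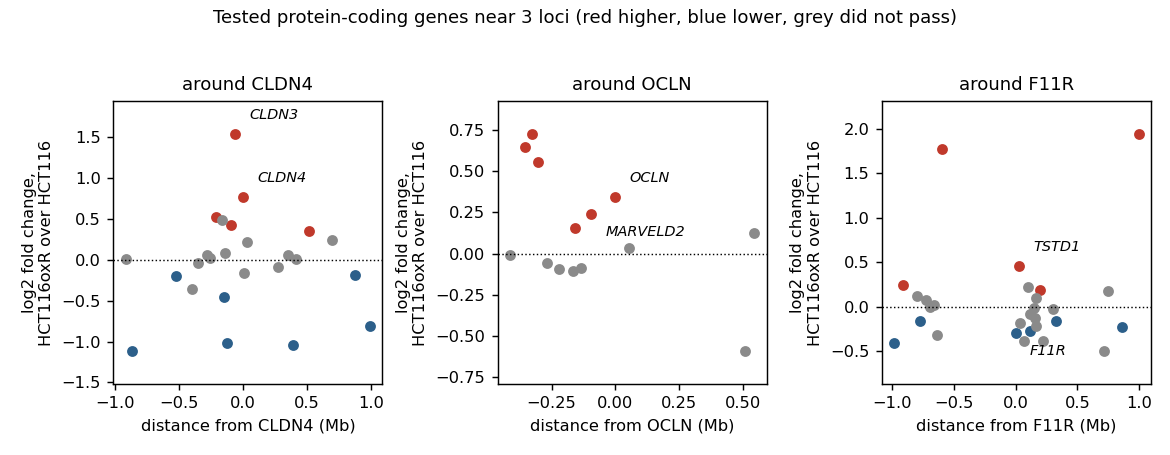
Log2 fold change of HCT116oxR over HCT116 cells (vertical axis) for tested protein-coding genes within 1 Mb of CLDN4, OCLN and F11R, by distance between gene centres in Mb (horizontal axis); red passed as higher, blue as lower, grey did not pass. CLDN3 is the highest point around CLDN4 at 1.55, and genes on both sides of CLDN4 fell.

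Across the promoter windows of RefSeq (250 bases before to 50 after a start), 8 of the 9 genes had an entry. The E-box letters CACCTG, searched on both strands, were in 20.6% of all 35116 windows. Among these genes CLDN3 had 1 match, beginning 37 bases after the start and so beyond the bases printed above, CLDN4 and CLDN12 had 0, both OCLN windows had 1 or 2, TJP1 had 1 in the first of its 4 windows, and the second CLDN7 window had 5, of which 4 are in the printed bases. The first CLDN7 window and the windows of CLDN1 and CLDN2 had 0. GGGCGG was in 44.95% of all windows. CLDN3 had 6 matches, of which 4 are in the printed bases and the other 2 overlap each other after the start, while CLDN4 had 1, beginning 47 bases before it. TJP1 had 3, 3, 1 and 0 in its 4 windows, CLDN1 had 2, and OCLN had 1 in its first window and 0 in its second. CLDN2 and CLDN12 had 0. CLDN7 had 0 in its first window and 2 in its second, 1 of them across the start and so not in capitals.

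CCGGTT, the core of grainyhead sites, was in 7.23% of all windows and in those of CLDN1 (1 match), CLDN7 (2, in its second window) and OCLN (1, in its second window). GTTAAT for HNF1, TTTATG for CDX factors and TATAAA for the TATA box were in 6.88%, 10.6% and 11.5% of all windows and in none of these genes. Matches of different motifs may share bases. CLDN3 and CLDN4 differ in base composition, with 72.0% G and C and 24 CpG dinucleotides in the CLDN3 window, 59.0% and 5 in the CLDN4 window, and medians of 58.7% and 14 over all windows. Both CLDN2 windows were poorer still in CpG, with 1 and 2. A match is a run of letters and not evidence that a factor binds.

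Other claudins were mostly absent. Of 18 further claudin genes 10 had 0 counts in every library, among them CLDN5 of endothelium, CLDN8 of colon and kidney and CLDN18 of stomach and lung. CLDN15 (16.2 ± 0.856 CPM in HCT116oxR cells, 17.9 ± 1.78 CPM in HCT116 cells) and CLDN23 (2.99 ± 0.806 CPM in HCT116oxR cells, 3.33 ± 0.778 CPM in HCT116 cells) could be tested, with log2 fold changes of -0.15 ± 0.12 and -0.16 ± 0.27, and edgeR called 0 of the 2. At an unadjusted p under 0.05 the count was also 0, and DESeq2 called 0 of 4. With the count filter, the claudins that edgeR tested were thus CLDN3, CLDN4, CLDN7, CLDN12, CLDN15 and CLDN23.

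Among 11 further membrane proteins of tight junctions, 8 were tested. In HCT116oxR cells 4 of them rose, 1 fell and 3 did not pass (median 0.41). Over all genes tested 22.3% were higher and 21.8% lower, and the counts of this and the following lists are given without a test. ILDR2, of the angulin family that builds tricellular corners, had 13.8 ± 1.28 CPM in HCT116oxR cells and 0.775 ± 0.107 CPM in HCT116 cells, 17.7-fold higher (log2 fold change 4.14 ± 0.24, adjusted p = 2.16e-32). LSR, another angulin gene, rose 1.26-fold. The third angulin gene, ILDR1, outside the naming rule, stood at 0.75 ± 0.33 and did not pass (adjusted p = 0.0597). CXADR, the coxsackie and adenovirus receptor gene, stood at 1.36 ± 0.53 (adjusted p = 0.0290) on 3 to 23 counts a library, overlaps BTG3 (833 to 1043 counts), and lost its call in 4 of 6 fits with a library left out, by DESeq2 and without the count filter. CLMP, a relative of CXADR, fell by 0.85 ± 0.29, but by 0.48 with no call (adjusted p = 0.279) without HCT116 replicate 3. JAM2 and JAM3, the relatives of F11R, had 0 counts in every library.

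Of 10 tested scaffold genes beside TJP1, 5 rose, 2 fell and 3 did not pass (median 0.12). MAGI1, a multi-domain scaffold, rose 2.05-fold, with 198 ± 3.80 CPM in HCT116oxR cells and 96.9 ± 6.29 CPM in HCT116 cells (log2 fold change 1.03 ± 0.05, adjusted p = 1.35e-42). A long non-coding gene inside MAGI1, LOC107986018, had 90 to 259 counts. CGN, which encodes cingulin, the link from ZO proteins to myosin, rose 1.68-fold, with 39.9 ± 0.733 CPM in HCT116oxR cells and 23.7 ± 0.890 CPM in HCT116 cells. SYMPK (symplekin) rose by 0.30 ± 0.04 on the log2 scale. TJAP1, which encodes a tight junction associated protein, fell by 0.51 ± 0.07. TJP3, the ZO-3 gene and outside the naming rule, stood at 0.04 ± 0.07.

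Polarity genes, whose products set the apical side and place the junction, were all tested, and 6 of 14 rose, 1 fell and 7 did not pass (median 0.17). Over all genes tested 44.1% were called, 22.3% higher and 21.8% lower. The largest rises in the list were those of PARD3B (0.93 ± 0.15), LLGL2 (0.69 ± 0.05) and SCRIB (0.48 ± 0.04). PRKCI, the atypical protein kinase C that binds PAR6, was lower by 0.13 ± 0.05 (adjusted p = 0.0405), a call lost in 8 of the 13 alternatives. Among 14 tested kinases, GTPase regulators and partners that act on tight junctions 6 rose, 4 fell and 4 did not pass (median 0.13). MYLK, the myosin light chain kinase gene whose activity opens junctions, had 9.11 ± 0.939 CPM in HCT116oxR cells and 2.86 ± 0.488 CPM in HCT116 cells (log2 fold change 1.66 ± 0.21, adjusted p = 1.20e-11). It overlaps MYLK-AS1, which had 14 to 59 counts. AMOT, the angiomotin gene, rose by 1.04 ± 0.15 and RAB13 by 0.33 ± 0.09, the call for RAB13 being lost without HCT116 replicate 1 (0.21, adjusted p = 0.0610). ARHGEF11 (-0.68 ± 0.11) and ARHGEF2 (-0.28 ± 0.08), which encode activators of RhoA, fell, as did the actin regulator VASP (-0.31 ± 0.07). RHOA itself (0.26 ± 0.03) and ROCK1 (0.30 ± 0.04), both outside the naming rule, rose. ROCK2, also outside it, did not pass (-0.006 ± 0.036).

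In adherens junctions and desmosomes, the adhesions below the tight junction, 7 of 17 tested genes rose, 3 fell and 7 did not pass (median 0.14). The shares over all genes tested were 22.3% higher and 21.8% lower. NECTIN3, a cell adhesion molecule of adherens junctions, had 681 ± 24.7 CPM in HCT116oxR cells and 161 ± 4.98 CPM in HCT116 cells, 4.23-fold higher (adjusted p = 2.73e-88). PPL (periplakin, 0.89 ± 0.05) and JUP (plakoglobin, 0.42 ± 0.04) rose. NECTIN2 (-0.54 ± 0.05) and the desmosomal cadherin genes DSC2 (-0.24 ± 0.05) and DSG2 (-0.23 ± 0.03) fell. CDH1, the E-cadherin gene, stood at 0.08 ± 0.06 (adjusted p = 0.304), with 70.4 ± 2.92 CPM in HCT116oxR cells and 66.6 ± 3.66 CPM in HCT116 cells.

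**Figure D5:**
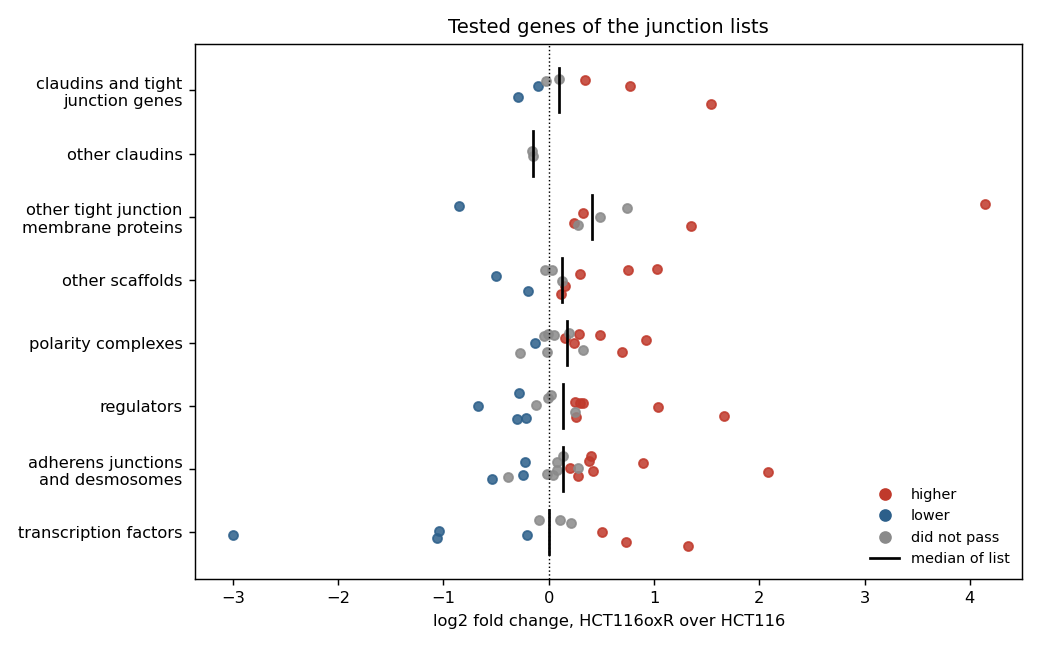
Log2 fold change of HCT116oxR over HCT116 cells (horizontal axis) for the tested genes of each list (rows), 1 point per gene, red passed as higher, blue as lower, grey did not pass, with a black line at the list median and vertical scatter only to separate points. Medians lie between -0.15 for the 2 other claudins and 0.41 for the other tight junction membrane proteins, where ILDR2 stands at 4.14.

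Transcription factors known to act on claudin or occludin promoters went both ways, with 3 of 10 tested genes higher, 4 lower and 3 not passing (median 0.01). The shares over all genes tested were 22.3% higher and 21.8% lower. SNAI2, a repressor of epithelial genes, had 5, 5 and 2 counts in HCT116oxR cells, against 49, 26 and 20 in HCT116 cells (log2 fold change -3.00 ± 0.50, adjusted p = 1.30e-07). ZEB1, a repressor with the same E-box, fell by 1.05 ± 0.19 and overlaps ZEB1-AS1 (43 to 71 counts). KLF5, an activator of intestinal crypt cells, fell by 1.06 ± 0.06, and SP1, outside the naming rule, by 0.20 ± 0.03. GRHL2, a grainyhead factor of epithelia, rose by 0.74 ± 0.20 and CDX2, the intestinal homeobox gene, by 0.51 ± 0.13. TWIST1 stood at 1.32 ± 0.45 on 1 to 45 counts a library, and its call was lost without HCT116oxR replicate 2 (0.94), without HCT116 replicate 1 (0.75) and by DESeq2 (1.30, adjusted p = 0.348). SNAI1, also outside the rule, stood at 0.21 ± 0.15 (adjusted p = 0.266). Whether any of these moved with the claudins for a reason was not tested.

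CLDN3 was the only one of the 7 tested genes that passed with a log2 fold change of at least 1, a size reached by 9.22% of all genes tested. Over the 6 libraries, and among 12728 genes whose average log2 CPM reached 2, those whose centred log2 values lay closest to those of CLDN3 were MMP11, EPN3 and UNC13D, at Euclidean distances of 0.337, 0.406 and 0.437. MMP11, which encodes a matrix metalloproteinase, had 11.7, 10.1 and 9.86 CPM in HCT116oxR cells, against 2.57, 2.94 and 4.05 CPM in HCT116 cells. As for CLDN3, the third HCT116 library was the highest of its line in MMP11, EPN3 and UNC13D. This is no separate likeness, since the 3 genes were chosen by their values in these same 6 libraries. The likeness rests on 2 lines and is a description.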

How the data were processed

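Total RNA of HCT116oxR and HCT116 cells (3 libraries each) was used, and the 6 small RNA samples were not used here. The authors deposited raw counts per gene, and the submitters' processing notes name HISAT2 and GRCh38. None of the counting tool, tool versions, annotation release, strand use or rule for multiply matching reads is given in the sources used here, so reads of overlapping genes cannot be told apart. RNA had an integrity number above 8.0 per the labels' protocols.

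Genes were filtered with filterByExpr (10 counts in a library of median size, 15 in all), scaled with TMM factors and tested in R 4.3.3 with edgeR 4.0.16 (robust quasi-likelihood F test, 2-sided, Benjamini-Hochberg adjusted, threshold 0.05). Each SE was obtained by dividing the size of the log2 fold change by the root of its F statistic. The test was checked on simulated counts. Alternatives were other scalings, no filter, DESeq2 1.42.0, a replicate block and leaving out each library. Levels of different genes were not compared, since transcript lengths were not used here. Symbols were matched to RefSeq (GRCh38.p14) for 51460 of 54261 genes, AFDN and PALS1 through the older MLLT4 and MPP5. Other genes are named by rule: up to 3 per list and direction with the largest change past the threshold and an average log2 CPM of at least 0, the nearest tested protein-coding gene on each side, and the 3 genes most like CLDN3. Any other is said to be outside it, or is a marker or a named family member. A gene that the rule names is not reported here. The genes and lists were chosen with earlier results of these data known. PCR duplicates could not be removed. Libraries of the same line differed by more than sampling noise (chi-square over its degrees of freedom at least 2.21), so none was counted as a repeat.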

Additional observations from a re-analysis of the deposited data

How the results depend on the processing

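CLDN3, CLDN4, OCLN and F11R kept their direction and call under all 13 alternatives, and 3 genes were called higher in each. The count called lower was 1 with upper quartile scaling, which lost TJP1, and 1 to 2 with a library left out. With a library left out, CLDN12 ranged from -0.079 to 0.066 and changed sign without HCT116oxR replicate 2, and GTF2H2C ranged from -0.037 to 0.095 and changed sign without HCT116 replicate 1. CHRFAM7A changed sign with the replicate block (-0.013) and in 3 fits with a library left out, which ranged from -0.24 to 0.24; none of these 3 genes passed in any of those fits. No polarity gene was called lower with upper quartile scaling, with no scaling, with no filter or with the replicate block (0 in each), and 0 to 1 with a library left out. With a library left out the other membrane proteins had 2 to 5 higher and 0 to 1 lower, and the other scaffolds 3 to 5 higher and 1 to 2 lower. The log2 difference in the CLDN1 to CLDN4 ratio ranged from -0.86 to 0.34, the 0.34 without HCT116 replicate 3. Neighbour medians moved with the window: at 5 Mb they were -0.10 for CLDN1 (0.53 over 2 genes at 1 Mb), 0.028 for CLDN3, -0.20 for CLDN7, -0.030 for CLDN12 and -0.051 for OCLN. The cause of these changes was not tested. Replicate numbers did not pair the samples (correlations of same-numbered deviations -0.03 to 0.01), and with the replicate block 3828 genes were higher and 3737 lower, against 3906 and 3815 without it. The best match of each HCT116oxR library was an HCT116 library of another number. Low counts limit CLDN1, CLDN2, CXADR and TWIST1.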

Other observations

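CLDND1, a gene with a claudin-like domain that was in no list and was chosen after its values were seen, had 526 ± 7.24 CPM in HCT116oxR cells and 391 ± 3.40 CPM in HCT116 cells (log2 fold change 0.43 ± 0.03, edgeR's adjusted p = 2.74e-24), with no overlap between lines. Among genes with too few counts for the test, also picked after their values were seen, HNF4A, an intestinal and hepatic transcription factor, had 26 counts over the HCT116oxR libraries and 2 over the HCT116 libraries, a ratio of CPM of 12.5 with an exact 95% binomial interval of 3.13 to 109 that covers counting error only. CGNL1, which encodes paracingulin, had 7, 7 and 12 counts in HCT116oxR cells, against 3, 3 and 0 in HCT116 cells. CLDN9 had 14, 4 and 6 counts in HCT116oxR cells, against 4, 4 and 1 in HCT116 cells. IGSF5, a JAM family gene, had 3, 3 and 2 in HCT116oxR cells against 0 in every HCT116 library. AMOTL1, also untested, went the other way, with 1, 0 and 2 counts in HCT116oxR cells, against 10, 0 and 6 in HCT116 cells.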
